A study of Homo sapiens with 6 samples.

Results

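The BCL2 family decides at the mitochondrial outer membrane whether a stressed cell survives or dies. The RNA of 10 of its genes was followed in U937, an established human line with myeloid features. The labels give its cell type as acute myeloid leukemia, and the line itself was derived from a histiocytic lymphoma. These members are the survival genes BCL2, BCL2L1, MCL1 and BCL2A1, the pore-forming effectors BAX and BAK1, and the BH3-only death genes BCL2L11, BID, PMAIP1 and BBC3. The members were chosen by name, and all 10 were found by Ensembl identifier among 60612 genes in the deposited table. All 10 also passed the filter on low counts that left 17224 genes.

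Wild-type U937 cells were routinely grown with serum and then held without serum for the experiment. For 36 h they were exposed either to B2 at 1 µM (3 libraries), an agent for which the labels give no other name, or to its DMSO vehicle (3 libraries). Each group carries replicate numbers 1 to 3. Whether the libraries of a group stem from separate cultures is not given in the labels. A p-value therefore reflects the variation among these libraries alone, and that variation may be technical.

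Survival proteins of this family hold BAX and BAK1 inactive and capture BH3-only proteins in a groove on their surface. BH3-only proteins are produced or activated under stress, and they either occupy that groove or engage BAX and BAK1 directly. Once BAX and BAK1 form pores, cytochrome c leaves the mitochondrion and caspases are activated. In myeloid leukemia the relative amounts of BCL2, MCL1 and BCL2L1 are known to influence sensitivity to drugs that imitate BH3-only proteins. Much of the control over MCL1, BID, BAX and BAK1 is exerted on the protein, which RNA counts do not measure.

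No member was called between B2 and DMSO, and the intervals of several members still allow sizeable changes. Of the 10 members 0 passed edgeR's quasi-likelihood test at an adjusted p below 0.05, against 0% of all 17224 genes. Each member had an adjusted p of 1.00 in edgeR's test. Without the adjustment 0.493% of all genes (85) and 0 members lay below 0.05, and DESeq2 called 3 genes and 0 members. By contrast, 2 of 10 members differed between replicate numbers, against 2.68% of all genes. BCL2A1 was high and BCL2 was low in both libraries numbered 3, and each call was lost when a particular library was left out. Levels are given as TMM-scaled CPM, that is, counts relative to the library total after scaling. A positive log2 fold change means a higher level with B2, and means carry SDs with n = 3.

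**Figure D1:**
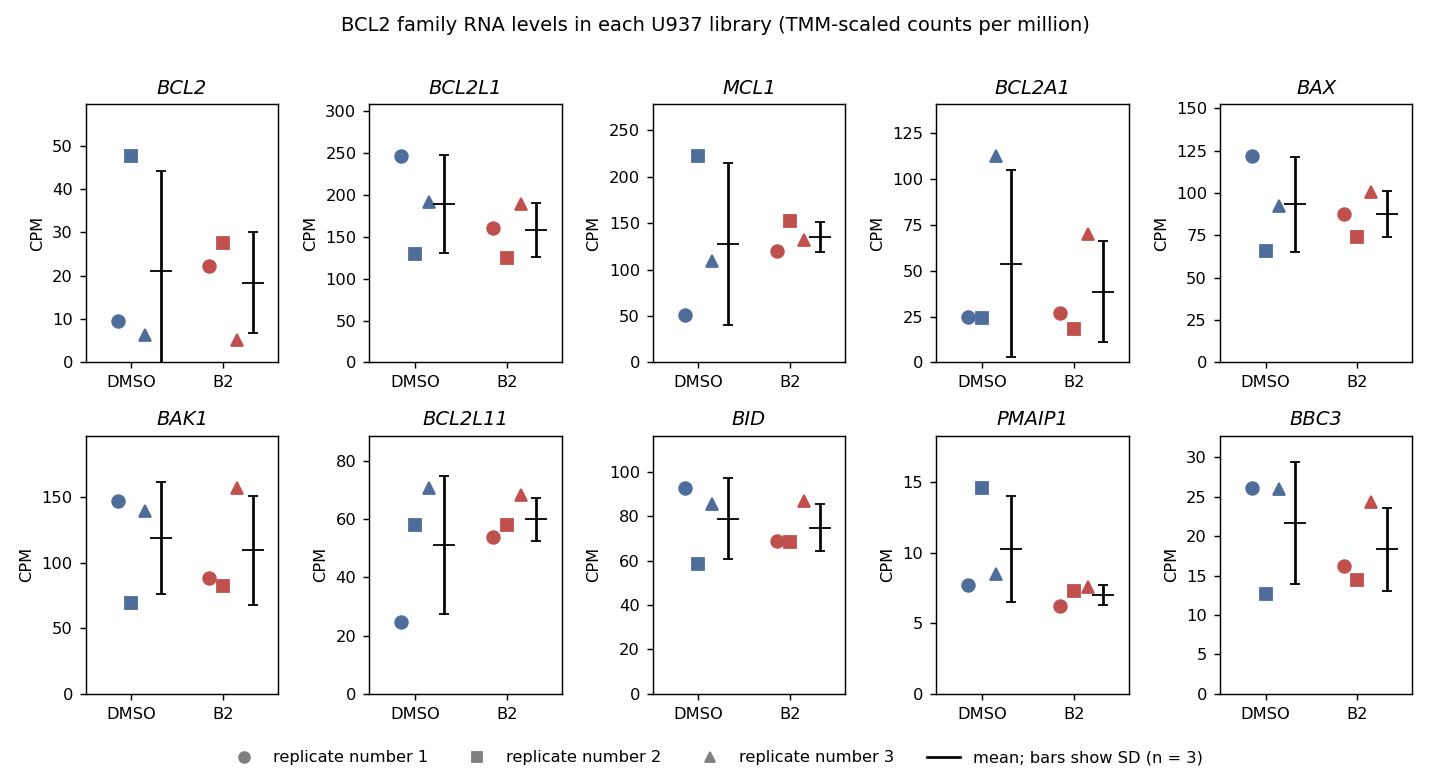
CPM of each member (y axes, each starting at 0) in the 3 DMSO and 3 B2 libraries (x axes), with marker shapes for replicate numbers and black bars for the mean ± SD, the lower BCL2 bar of DMSO being cut at 0. BCL2 lies between 5.23 and 47.6 CPM and BCL2A1 between 18.4 and 113 CPM, while BID stays between 58.6 and 92.9 CPM.

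BCL2, the founding survival gene and the target of the drug venetoclax, lies on chromosome 18 (63123346 to 63320128, minus strand, GRCh38, GENCODE 29). Its level was 22.4, 27.5 and 5.23 CPM in B2 replicates 1, 2 and 3, and 9.48, 47.6 and 6.25 CPM in DMSO replicates 1, 2 and 3, the order used for every gene. Libraries numbered 3 were lowest in both groups, DMSO replicate 2 was highest, and the groups overlapped. BCL2 averaged 18.4 ± 11.7 CPM in the B2 libraries and 21.1 ± 23.0 CPM in the DMSO libraries. Its log2 fold change was -0.20 with a standard error (SE) of 0.83 and a 95% interval from -2.10 to 1.70. It changed sign with the replicate number as a block (0.05, SE 0.38) and reached 1.18 without DMSO replicate 2.

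BCL2L1 encodes BCL-XL, a survival protein of many blood lineages, on chromosome 20 (31664452 to 31723989, minus strand). It read 161, 125 and 189 CPM in the B2 libraries and 247, 129 and 191 CPM in the DMSO libraries. In both groups number 2 was lowest, DMSO replicate 1 was highest, and the groups overlapped. For BCL2L1 the log2 fold change was -0.26 (SE 0.31, 95% interval from -0.98 to 0.46), and it was -0.01 without DMSO replicate 1. The exons of ABALON, an antisense transcript, overlap those of BCL2L1 over 1424 bases. The strand setting of the counting is not given in the sources used here, so reads of the pair may not be separated. ABALON itself read 7.92 to 24.4 CPM.

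MCL1, a short-lived survival protein on which many myeloid cells depend, is encoded on chromosome 1 (150574551 to 150579738, minus strand). Its level was 120, 152 and 132 CPM in the B2 libraries and 51.0, 222 and 109 CPM in the DMSO libraries. All 3 B2 libraries lay inside the DMSO range, whose ends were DMSO replicates 1 and 2. MCL1 averaged 135 ± 16.0 CPM in the B2 libraries and 127 ± 87.1 CPM in the DMSO libraries, a log2 fold change of 0.08 (SE 0.48, 95% interval from -1.01 to 1.17). Without DMSO replicate 1 the estimate was -0.28, and without DMSO replicate 2 it was 0.73.

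BCL2A1, also called BFL1 or A1, is a survival gene of granulocytes, macrophages and B cells that responds to NF-kB signalling. It lies on chromosome 15 (79960889 to 79971446, minus strand). Its level was 27.2, 18.4 and 70.2 CPM in the B2 libraries and 24.96, 24.2 and 113 CPM in the DMSO libraries. Both libraries numbered 3 stood above the other 4, and the treatment groups overlapped. BCL2A1 averaged 38.6 ± 27.7 CPM in the B2 libraries and 53.9 ± 50.9 CPM in the DMSO libraries. On the log2 scale the fold change was -0.48 (SE 0.71, 95% interval from -2.10 to 1.13), with 0.65 without DMSO replicate 3 and -1.24 without B2 replicate 3.

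The effectors varied less than BCL2, BCL2A1 or MCL1. BAX, on chromosome 19 (48954815 to 48961798, plus strand), encodes an effector that moves from the cytosol to mitochondria when activated. It read 87.7, 74.1 and 101 CPM in the B2 libraries and 122, 65.7 and 92.1 CPM in the DMSO libraries. All 3 B2 libraries lay inside the DMSO range. The log2 fold change of BAX was -0.09 (SE 0.30, 95% interval from -0.77 to 0.59), 0.02 when libraries were scaled by their totals alone and 0.16 without DMSO replicate 1.

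BAK1, on chromosome 6 (33572547 to 33580293, minus strand), encodes the effector that resides in the outer membrane. Its level was 88.4, 82.6 and 157 CPM in the B2 libraries and 147, 69.5 and 139 CPM in the DMSO libraries. The 3 high libraries were both of number 3 and DMSO replicate 1, and the groups overlapped. The log2 fold change of BAK1 was -0.12 (SE 0.38, 95% interval from -0.996 to 0.76), -0.48 without B2 replicate 3 and 0.08 without DMSO replicate 1.

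Among the BH3-only genes, PMAIP1 (NOXA) had the lowest estimate of the 10 members in the main fit, and also with the replicate number as a block (-0.49). BCL2A1 was lower than PMAIP1 with length and GC trends removed (-0.53 against -0.38) and without B2 replicate 3 (-1.24 against -0.61), among other settings. NOXA binds MCL1 with preference and is induced by p53 and by ATF4, and its gene lies on chromosome 18 (59899948 to 59904306, plus strand). PMAIP1 read 6.22, 7.26 and 7.59 CPM in the B2 libraries and 7.72, 14.6 and 8.45 CPM in the DMSO libraries. Every B2 library lay below every DMSO library, and PMAIP1 was the 1 member of 10 whose groups did not overlap, against 3.56% of all genes (1.63% with B2 the lower group). The gap was narrow (7.59 against 7.72 CPM), and it closed when libraries were scaled by their totals alone: B2 replicate 2 read 7.78 CPM and DMSO replicate 1 read 6.65 CPM. For PMAIP1 the log2 fold change was -0.55 (SE 0.34, 95% interval from -1.34 to 0.24), with -0.23 without DMSO replicate 2. PMAIP1 was lower with B2 within each number, by log2 differences of -0.31, -1.01 and -0.15. BCL2L1 was the other member lower in every number (-0.62, -0.05 and -0.02), so 2 of 10 members had this order, against 9.2% of all genes. The opposite order, higher with B2 in every number, was found in 0 members and in 6.71% of all genes.

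The stretch of DNA before the first annotated exon of PMAIP1 is shown because this gene alone among the members had groups that did not overlap. It spans chr18:59899746-59899947 (GRCh38.p14, plus strand, RefSeq promoter table trimmed at the GENCODE 29 gene start). Capitals mark CGTCA, the reverse complement of the short cyclic AMP response core TGACG. Of 35116 promoter windows of 250 bases, 21.2% hold this core on either strand. Windows of BCL2, BAX and BCL2L1 hold it as well.
PMAIP1: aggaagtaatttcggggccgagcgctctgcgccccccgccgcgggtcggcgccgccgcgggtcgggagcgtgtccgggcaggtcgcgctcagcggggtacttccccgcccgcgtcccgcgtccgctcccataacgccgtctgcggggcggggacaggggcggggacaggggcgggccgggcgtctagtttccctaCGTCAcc
Other cores found in it, such as the GC box, are left in lower case. A match of letters is a description of the window and shows no binding.

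BCL2L11 encodes BIM, which binds every survival protein of the family and is raised when growth factors are withdrawn. The gene lies on chromosome 2 (111119378 to 111168447, plus strand). It read 53.8, 57.9 and 68.2 CPM in the B2 libraries and 24.6, 57.8 and 70.8 CPM in the DMSO libraries. DMSO replicate 1 was low, and the other 5 libraries ran from 53.8 to 70.8 CPM. The log2 fold change of BCL2L11 was 0.23 (SE 0.39, 95% interval from -0.65 to 1.12), and it was -0.09 without DMSO replicate 1. Exons of the long noncoding gene MIR4435-2HG overlap it on the opposite strand over 727 bases, and that gene read 27.4 to 51.4 CPM.

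BID, the protein that caspase-8 cleaves to link death receptors with mitochondria, is encoded on chromosome 22 (17734138 to 17774770, minus strand). Its level was 69.0, 68.2 and 86.9 CPM in the B2 libraries and 92.9, 58.6 and 85.4 CPM in the DMSO libraries. BID had the smallest spread of the 10 members, and its highest library was 1.59 times its lowest. Its log2 fold change was -0.08 (SE 0.27, 95% interval from -0.71 to 0.55), 0.02 with library totals alone.

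BBC3 encodes PUMA, a p53 target that binds every survival protein of the family. It lies on chromosome 19 (47220822 to 47232766, minus strand) and read 16.3, 14.4 and 24.3 CPM in the B2 libraries and 26.2, 12.7 and 26.0 CPM in the DMSO libraries. All 3 B2 libraries lay inside the DMSO range. For BBC3 the log2 fold change was -0.24 (SE 0.38, 95% interval from -1.10 to 0.62), and it was -0.07 without DMSO replicate 1.

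**Figure D2:**
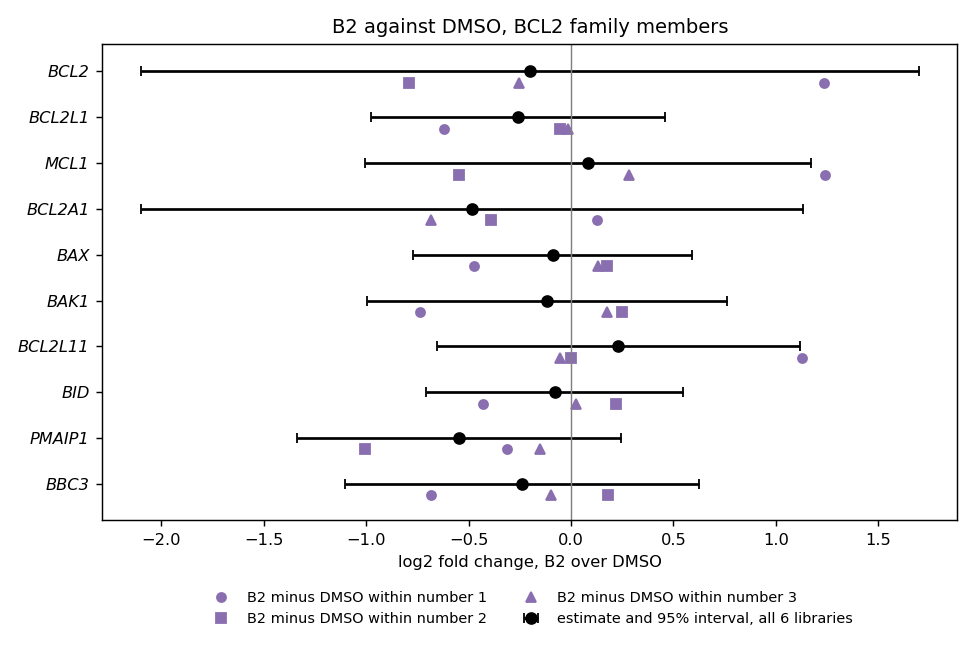
Log2 fold change of B2 over DMSO (x axis) for each member (y axis), with black points and bars for the edgeR estimate and its 95% interval over 6 libraries, and purple markers for the difference within each replicate number. Every interval spans 0, and the within-number differences of BCL2 run from -0.79 to 1.24.

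The precision of these estimates differed among members. The 95% interval lay wholly within a 2-fold change either way for 4 of 10 members (BCL2L1, BAX, BAK1 and BID), against 36.6% of all genes. For BCL2 and BCL2A1 the interval also covered changes beyond 3-fold in at least 1 direction, with fold bounds of 0.234 to 3.24 for BCL2 and 0.233 to 2.19 for BCL2A1. With the replicate number as a block the bounds were narrower, at 0.585 to 1.83 for BCL2 and 0.532 to 1.21 for BCL2A1. In that fit the interval lay within a 2-fold change for 7 of 10 members, all but MCL1, BCL2L11 and PMAIP1, against 58.2% of all genes. The SD over libraries was larger in DMSO than in B2 for 10 of 10 members, while 75.7% of all genes had that order. The fold changes were negative for 8 of 10 members with TMM scaling and for 6 of 10 with library totals alone, while 62.1% and 49.9% of all genes were negative under these scalings. The median of the members was -0.16, beside -0.08 over all genes.

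Replicate numbers were compared next. A joint edgeR test of the 3 numbers, with treatment kept as a term, called 2 of 10 members and 2.68% of all genes (461). This test was added with the knowledge that libraries numbered 3 stand apart in this series. BCL2A1 was higher in number 3, by 1.76 on the log2 scale over number 1 and by 2.08 over number 2 (edgeR adjusted p = 0.0054). BCL2 went the other way. It was lower in number 3 than in number 1 by a log2 difference of -1.46 and lower than in number 2 by -2.71 (edgeR adjusted p = 0.0197). Both genes thus separated number 3 from the other 4 libraries in opposite directions, whichever treatment the cells received. For BCL2 the joint test also took in a difference between numbers 1 and 2, with number 2 higher by 1.26. For BCL2A1 that difference was -0.32. BCL2L11 was the third member with both libraries of number 3 on 1 side (68.2 and 70.8 CPM, above the other 4), and it did not pass the test (adjusted p = 0.291 in edgeR). Such a position of number 3 was found in 3 of 10 members and in 24.4% of all genes.

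Each call was lost without 1 particular library, while the differences stayed large. Without DMSO replicate 3 the largest difference of BCL2A1 was 1.80 on the log2 scale (edgeR adjusted p = 0.348). Without DMSO replicate 2 that of BCL2 was 1.92 (edgeR adjusted p = 0.0552). The call of BCL2 was also lost when libraries were scaled by their totals alone, at a difference of 2.84 (edgeR adjusted p = 0.105). Leaving out a library left 1 replicate number with 1 library. Without B2 replicate 1, number 1 was DMSO replicate 1 alone. In that fit the largest differences were 2.60 for BCL2 and 2.14 for BCL2A1. BAK1, BID and BBC3 were then highest in number 1, while the main fit had them highest in number 3. With the trends of gene length and GC content removed, BCL2A1 and BCL2 remained called. The largest difference was then 2.45 for BCL2A1 (edgeR adjusted p = 6.05e-04) and 2.19 for BCL2 (edgeR adjusted p = 0.00281).

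**Figure D3:**
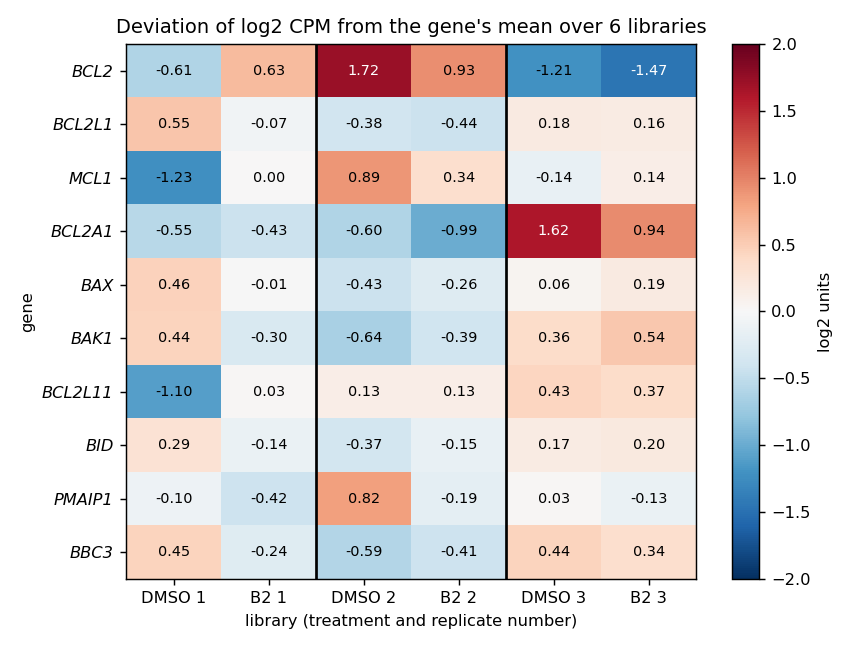
Deviation of log2 CPM from each gene's mean over the 6 libraries (colour and printed value), with libraries ordered by replicate number on the x axis and members on the y axis. BCL2 is low and BCL2A1 high in both libraries of number 3, and MCL1 and BCL2L11 are low in DMSO 1.

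Macrophage genes moved with number 3 as well. The summed level of 7 macrophage markers was 1011 and 1107 CPM in the libraries numbered 3 and 18.0 to 40.2 CPM in the other 4, with MRC1 at 0 in all libraries. The 6 tested markers all differed between numbers, against 2.68% of all genes. SPI1, the gene of the myeloid factor PU.1, read 426 and 420 CPM in number 3 and 198 to 388 CPM elsewhere, and it did not pass between numbers (edgeR adjusted p = 0.168). The part of this shift in the BCL2A1 and BCL2 values was not tested. In bulk RNA fewer cells of a type and less RNA per cell cannot be told apart.

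The defining T cell genes CD3D, CD3E, CD3G and TRBC1 were at 0 in every library, as were the B cell gene MS4A1, the NK cell gene KLRD1 and the erythroid gene HBB. The 7 T cell markers summed to 3.4999 and 4.909 CPM in number 3 and to 0.203 to 0.876 CPM elsewhere. Most of the sum in number 3 was CD2 alone (3.38 and 4.57 CPM), which differed between numbers (edgeR adjusted p = 0.00268). The 5 B cell markers summed to 19.6 to 26.4 CPM and the 5 fibroblast markers to 4.44 to 8.19 CPM. Of the 4 NK cell markers, NKG7, which myeloid cells also express, read 169 to 376 CPM, while GNLY reached at most 0.396 CPM and NCAM1 at most 6.12 CPM. The 4 erythroid markers summed to at most 0.215 CPM. The 12 myeloid markers were all detected, though MPO, a progenitor granule enzyme, reached at most 1.67 CPM. They summed to 5876 and 5589 CPM in number 3 and to 3230 to 4505 CPM elsewhere. Of the 12, 3 (CD68, FCER1G and TYROBP) passed between numbers, each highest in number 3, against 2.68% of all genes. The 6 epithelial markers summed to between 39.7 and 49.6 CPM in the B2 libraries and to between 3.03 and 34.8 CPM in the DMSO libraries, and 0 of them passed between treatments. The part of the epithelial markers in the comparison of B2 with DMSO was not tested.

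The BCL2A1 start region is shown because this gene had the smallest p of the members between numbers. Its RefSeq window of 250 bases falls inside the first exon of a longer GENCODE 29 transcript, so only 30 bases around each match are given (GRCh38.p14, minus strand). The window was searched on both strands for cores of NF-kB (GGG, any 5 bases, CC), the interferon response element (GAAA, any 2 bases, GAAA), STAT factors (TTCNNNGAA), AP-1 (TGANTCA), the cyclic AMP response element (TGACGTCA and the short TGACG) and the GC box (GGGCGG). The interferon core TTTCTCTTTC was found on the reverse strand within the 30 bases chr15:79971310-79971339, and 3.0% of all windows hold this core. The STAT core was found within the 30 bases chr15:79971345-79971374, and 6.6% of all windows hold it. Capitals mark the cores.
BCL2A1-interferon: cattttaaacTTTCTCTTTCatacatgaca
BCL2A1-STAT: aggaagtggcTTCTCTGAAacattttcctc
The other cores searched were not found in this window, including that of NF-kB, which 54.4% of all windows hold. The window held 38.8% G and C, beside a median of 58.0% over all windows. Of the 10 members 9 had a window in the RefSeq table. Only BCL2A1 among them held the interferon or STAT core.

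The DMSO libraries also differed among themselves along GC content. DMSO replicates 1 and 2 differed in MCL1, BCL2 and BCL2L11 by log2 values of 2.12, 2.33 and 1.23 (replicate 2 minus replicate 1). BCL2L1, BAX, BAK1, BID and BBC3 differed the other way, by -0.93, -0.89, -1.08, -0.66 and -1.04. The GC content of the longest transcript was 45.1% for MCL1, 45.6% for BCL2 and 45.7% for BCL2L11, and 49.7% to 69.7% for the latter 5. PMAIP1 (37.2%) differed by 0.92 and BCL2A1 (39.9%) by -0.04. Over all tested genes the median of this difference was 1.01 below a GC content of 42% and 1.09 at 42% to 48%. It was 0.09 at 48% to 54%, -0.56 at 54% to 60% and -0.78 at 60% or more. The 2 libraries thus differed along GC content throughout the table. The differences of MCL1, BCL2 and BCL2L11 were larger than the median of their class, and BCL2A1 lay well below the median of its own. BID (-0.66) lay on the other side of 0 from the median of its class (0.09).

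**Figure D4:**
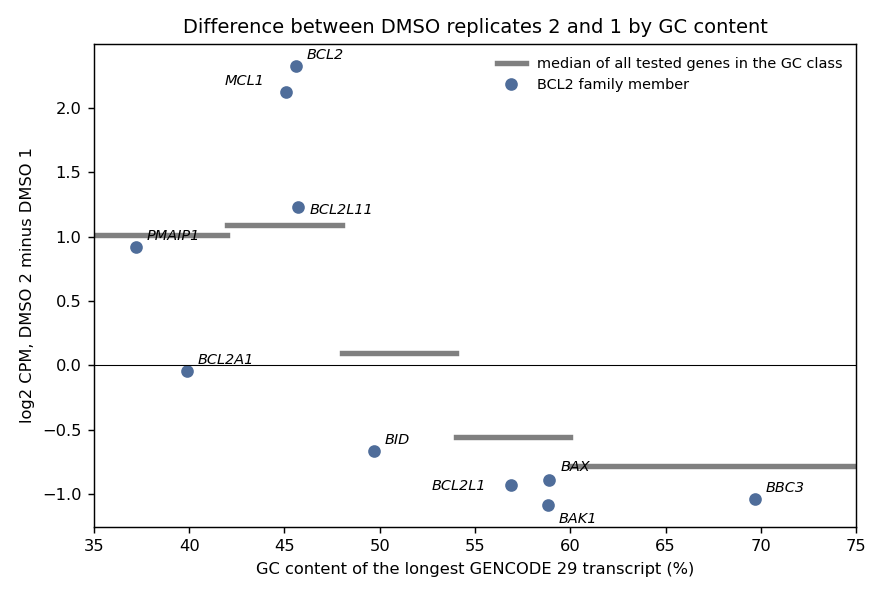
Log2 CPM of DMSO replicate 2 minus DMSO replicate 1 (y axis) against the GC content of the longest transcript (x axis), with points for members and grey bars for the median of all tested genes in 5 GC classes, the outer ones open-ended. PMAIP1, MCL1, BCL2 and BCL2L11 lie above 0 and BCL2A1 at -0.04, and those from 49.7% upward lie below 0.

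The within-number differences between treatments were set beside this division, and whether they differ between numbers was not tested. Within number 1, B2 exceeded DMSO by 1.24 for BCL2, 1.24 for MCL1 and 1.13 for BCL2L11, and lay below it by log2 differences of -0.74 for BAK1, -0.68 for BBC3 and -0.62 for BCL2L1. Within number 2 the values were -0.79, -0.55 and 0.00 for the former 3 genes and 0.25, 0.18 and -0.05 for the latter. Within number 3 they were -0.25, 0.28 and -0.05 for the former and 0.18, -0.10 and -0.02 for the latter. With the trends of length and GC content removed, the fold change of PMAIP1 was -0.38 and that of MCL1 was 0.17, and 0 members were called.

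Ratios of members within a library do not depend on the scaling between libraries, and 2 were compared. A ratio does not remove differences between libraries along GC content. That content was 58.9% for BAX and 45.6% for BCL2, and 37.2% for PMAIP1 and 45.1% for MCL1. The part of GC content in these ratios was not tested. The ratio of BAX to BCL2 counts was 1.97, 1.43 and 4.27 on the log2 scale with B2 and 3.68, 0.46 and 3.88 with DMSO. It was high in number 3 and low in number 2 in both groups. The means were 2.56 ± 1.51 with B2 and 2.68 ± 1.92 with DMSO (n = 3 each, two-sided exact permutation p = 1.0, adjusted over the 2 ratios 1.0). The sign of this difference turned from -0.12 to 0.48 without DMSO replicate 3.

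The ratio of PMAIP1 to MCL1 counts was -4.27, -4.39 and -4.12 on the log2 scale with B2 and -2.72, -3.93 and -3.69 with DMSO. Every B2 library lay below every DMSO library and below the DMSO library of its own number. The means were -4.26 ± 0.13 with B2 and -3.45 ± 0.64 with DMSO, a difference of -0.82 (n = 3 each, two-sided exact permutation p = 0.1, which is the smallest that 3 against 3 can give, adjusted p = 0.2). Taken within numbers, the exact sign-flip p was 0.25, also the smallest possible. Without DMSO replicate 1, where MCL1 was low, the difference was -0.45.

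**Figure D5:**
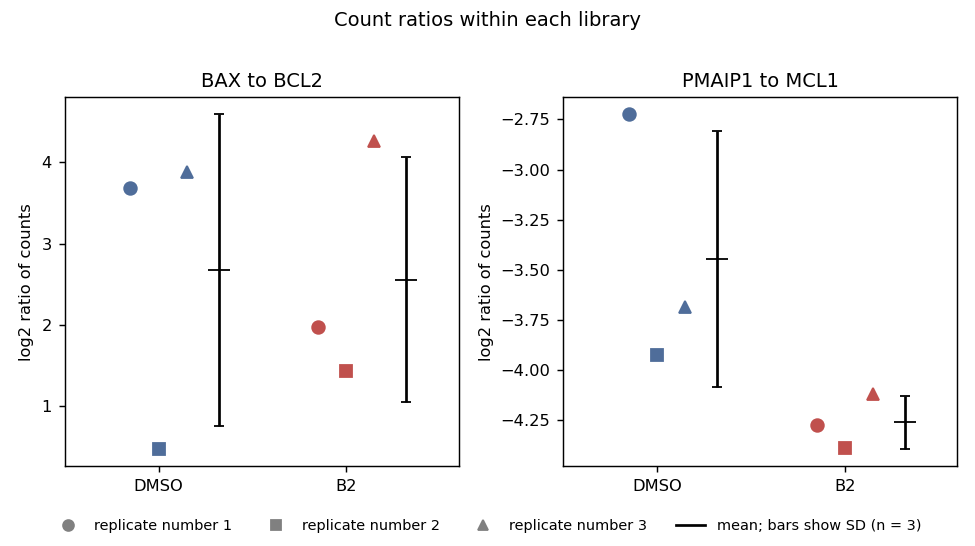
Log2 ratio of counts within each library (y axes) for BAX to BCL2 and PMAIP1 to MCL1 in the DMSO and B2 libraries (x axes), with marker shapes for replicate numbers and black bars for the mean ± SD. The PMAIP1 to MCL1 ratio of the 3 B2 libraries lies between -4.39 and -4.12, below the 3 DMSO libraries.

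Levels of different genes were compared per kilobase of exon (CPM divided by the length of the merged GENCODE 29 exons), which ignores which isoform is used. By the mean over 6 libraries the order was BCL2L1 (52.4 CPM per kilobase), BAK1 (51.6), BCL2A1 (42.5), BAX (34.9), MCL1 (29.99), BID (17.3), BCL2L11 (8.34), BBC3 (6.28), PMAIP1 (3.87) and BCL2 (1.68). Ranges of neighbours over the 6 libraries overlapped at every step but that from BID to BCL2L11. BID exceeded BCL2L11 in 6 of 6 libraries, at 13.2 to 20.9 against 3.70 to 10.6 CPM per kilobase. BCL2A1 exceeded BAX in 2 of 6 libraries, both of number 3, where it read 64.4 and 103 CPM per kilobase. MCL1 ranked above all other members in DMSO replicate 2 and below BID in DMSO replicate 1. BCL2 was last in every library but DMSO replicate 2.

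The member with the largest spread of log2 CPM in each role was set against 10069 genes of at least 5 CPM on average, by Pearson's r over the 6 libraries. With so few libraries many genes reach a high r, and the libraries share depth and GC trends, so the values are descriptions. For BCL2 the closest were GGCT (r = 0.997), CDCA7 (0.997) and RBMX (0.995). CDCA7, for example, read 30.8, 44.3 and 10.5 CPM in the B2 libraries and 16.6, 63.1 and 11.8 CPM in the DMSO libraries. For BAK1 they were SLC16A3 (0.999), TMEM205 (0.999) and C1orf122 (0.997), and for BCL2L11 MYO1E (0.995) and ADAR (0.995) were among the closest.

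Other BCL2 family genes gave no call either. Of 14 listed genes 9 were tested, 0 passed between treatments and 0 between numbers. The read-through gene BCL2L2-PABPN1, which shares exons with BCL2L2 and is uncertain for that reason, read 1.41, 0.561 and 1.73 CPM in the B2 libraries and 3.87, 2.22 and 1.87 CPM in the DMSO libraries. Its groups did not overlap, and its log2 fold change was -1.10 (SE 0.52, edgeR adjusted p = 1.00). BIK, a BH3-only gene of the endoplasmic reticulum, stayed between 1.21 and 3.24 CPM. BCL2L10, BOK, HRK, BCL2L14 and BCL2L15 did not pass the filter and reached at most 22 counts in a library, and BCL2L14 had 0 in all.

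Downstream of the pore, 0 of 13 genes of the mitochondrial pathway passed between treatments or between numbers. CYCS, the gene of cytochrome c, averaged 94.8 ± 12.1 CPM in the B2 libraries and 119 ± 20.03 CPM in the DMSO libraries (log2 fold change -0.33, SE 0.25). Of 7 inhibitors of apoptosis 0 passed between treatments and 1 between numbers, where 2.68% of all genes passed. That gene, BIRC3, an NF-kB target, read 2.18 and 4.82 CPM in number 3 and 0.339 to 0.915 CPM in the other libraries (edgeR adjusted p = 0.00649).

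In the death receptor arm that leads to BID, 10 of 12 genes were tested. Of these, 0 passed between treatments and 1 between numbers, where 2.68% of all genes passed. TNFSF10, the gene of the ligand TRAIL, read 4.03 and 4.84 CPM in number 3 and 0.645 to 2.55 CPM elsewhere (edgeR adjusted p = 0.0167). FASLG was at 0 in every library. Among 11 genes for the turnover of MCL1 and BH3-only proteins 0 passed either test. HUWE1, an MCL1 ubiquitin ligase, had a log2 fold change of 0.51 (SE 0.41). Among 13 transcription factor genes known to drive family members 0 passed either test. NFKB1 lay at 0.19 (SE 0.27) and STAT5A at -0.18 (SE 0.29).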

How the data were processed

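RNA was sequenced from 6 U937 libraries, 3 with B2 and 3 with DMSO, and groups and replicate numbers were taken from the sample titles. Estimated counts per gene, without normalization, were deposited in 1 table, and HISAT2 2.0.4 is the aligner per the submitters' processing notes. How reads were counted, on which build and annotation and with which strand setting, is not given in the sources used here. All values were already whole, yet the value 4 occurred 6465 times against 3144 for 3 and 2022 for 5, so small counts are less exact than they look. Library totals ran from 61150740 to 78431054 counts, and 3 counts corresponded to 0.0386 to 0.0537 CPM.

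Symbols came from a gene name table (60401 identifiers) and GENCODE 29 (187 more). Positions, exon lengths and GC content are those of GENCODE 29 (GRCh38) and may differ from the authors' annotation. Genes were filtered with edgeR 4.0.16's filterByExpr (minimum count 10, minimum total 15) under R 4.3.3, scaled by TMM and tested with glmQLFit and glmQLFTest with treatment as the only term. Replicate numbers were tested jointly in a fit with treatment. Both tests were adjusted by Benjamini-Hochberg over all 17224 genes, and the code was run on simulated data with known changes. CPM on the log2 scale used a prior count of 2.

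The 10 members, the lists of related genes, the markers and the tests were chosen with earlier results of these data known. Genes named outside the members were those of each list past either test, or otherwise the 2 of smallest p, and the text prints a part of the genes the rule allows. Some genes the rule names are not reported here. SPI1, MIR4435-2HG, ABALON and the markers with values were named after their values were seen.

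After centring on the group means, libraries of the same number correlated at 0.21, 0.40 and 0.50 across genes for numbers 1, 2 and 3, all above 0.1. Same-numbered libraries were treated as pairs in the block, the sign-flip test and the within-number differences. The main treatment fit and the permutation tests were not paired. The labels name no shared culture or day, so the pairing rests on these values. Alternatives were other scalings (RLE, upper quartile, library totals), other filters, DESeq2 1.42.0, limma-voom (limma 3.58.1), counts divided by 4, a threshold of 0.01 on the adjusted p, leaving out genes of the mitochondrial genome, the block, and libraries left out. Removal of length and GC trends, and the block without number 3, were added after seeing the data.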

Additional observations from a re-analysis of the deposited data

How the results depend on the processing

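Between treatments, 0 members were called under each of 21 other settings, the replicate block included. Over all genes the count of 0 became 3 with DESeq2, 0 to 1 with 1 library left out, and 48 without both libraries numbered 3 and with the replicate block, a fit with 1 residual degree of freedom. The sign of a member's fold change was kept in 181 of 200 alternative estimates. BCL2 turned from -0.20 to 0.051 with the replicate block, 0.071 with limma-voom and 0.22 without number 3 and with the block. BAX turned to 0.016 and BID to 0.018 with library totals, BAX to 0.00059 when trends in GC and length were removed in the blocked fit, and MCL1 to -0.0025 without number 3. With 1 library left out, ranges crossed 0 for BCL2 (-0.63 to 1.18), MCL1 (-0.28 to 0.73), BCL2A1 (-1.24 to 0.65), BAX (-0.32 to 0.16), BAK1 (-0.48 to 0.081), BCL2L11 (-0.089 to 0.54), BID (-0.28 to 0.065) and the BAX to BCL2 ratio (-1.23 to 0.48). The PMAIP1 to MCL1 ratio difference stayed between -1.06 and -0.45.

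Between replicate numbers, the count of 2 members became 3 with counts divided by 4, where MCL1 passed (edgeR adjusted p = 0.0404), 1 with library totals, 1 at an adjusted p of 0.01, and 1 to 8 with 1 library left out. The count of 461 genes became 266 with library totals, 956 with RLE factors, 1168 with upper-quartile factors, 1346 with the stricter filter, 1671 with DESeq2, 1278 with limma-voom, 2379 with counts divided by 4, 248 at an adjusted p of 0.01, 789 with length and GC trends removed, and 388 to 4124 with 1 library left out. The cause of these shifts was not tested. Leaving out 1 library left 1 replicate number with 1 library.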
